A study of Drosophila melanogaster with 36 samples.

Results

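The miRNAs described here are those of Drosophila melanogaster numbered in the 4900s, without miR-4940, and in the 9300s. They were chosen by number, except that miR-4940, grouped elsewhere with miRNAs falling with age, was left out. Counts of lower arms given below therefore do not include miR-4940. The tables list 130 mature arms of such numbers, from 78 hairpins, and 117 arms of 72 hairpins had a count in at least 1 library. Of the 117 arms, 83 are numbered in the 4900s and 34 in the 9300s, out of 463 miRBase-named features with a count. The other 13 arms were at 0 in all 36 libraries.

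Small RNA came from whole heads of female w1118 flies, 400 heads pooled per sample, aged 5 days (young) or 55 days (old). At each age heads were taken at zeitgeber time (ZT) 0, 4, 8, 12, 16 and 20, with 3 replicates per time point, so that 12 groups make 36 libraries. All groups share the w1118 background, a white-eyed laboratory strain, and the labels name no transgene and no drug. Whether replicates are separate cohorts is not given in the labels, and p-values therefore speak only of the spread among these 36 libraries, which may be technical.

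A miRNA is cut from an RNA hairpin, and 1 of the hairpin's arms (5p or 3p) is usually kept by the Argonaute protein while the other is degraded. Mirtrons are hairpins that form a whole short intron, so that splicing takes the place of the nuclear cut by Drosha. High miRBase numbers go to hairpins found late, mostly by deep sequencing, and such hairpins tend to be weakly expressed and poorly conserved. The tables hold no measure of the evolutionary age of a miRNA, and no targets of these miRNAs are described here.

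Library depth was 16.2 to 30.4 M miRNA counts. Markers of head tissue were present in every library, with the neuronal miR-124-3p at 158 to 492 CPM and the photoreceptor miRNA miR-210-3p at 17488 to 39459 CPM (CPM are counts per M counts, scaled with TMM factors). The 16 testis marker arms summed to 9.86 to 15.1 CPM in young and 12.1 to 21.5 CPM in old libraries, mostly from miR-982-5p (6.39 to 10.4 and 8.04 to 15.1 CPM). Of the 16, miR-303-5p had a median of 0 in both ages. The part of these miRNAs in the results was not tested. The ovarian follicle cell miRNA miR-318-3p stood at 460 CPM in young ZT4 replicate 3, at 784 CPM in young ZT8 replicate 3 and at 563 CPM in old ZT0 replicate 1. Its median in 31 other libraries was 16.7 CPM. In young ZT0 replicate 1 and old ZT0 replicate 3, miR-184-3p took 45.3% and 37.1% of all counts, against a median of 10.5%. Young ZT0 replicate 1 was the highest of all libraries for 8 and the lowest for 4 of the tested arms. The part of ovary miRNAs and of miR-184-3p in the results was not tested, and counts of calls without these 5 libraries are given beside the results they touch.

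As a group these miRNAs were scarce. Their counts summed to 166868 over the 36 libraries, 0.0200% of all miRNA counts. A few arms held most of them, since the leading arm, miR-4919-3p, made up 22.8% of the summed counts, the first 4 arms 68.0% and the first 8 arms 82.2%. Only 4 arms reached a total of 10000 counts, 18 arms reached 1000, 47 reached 100 and 87 reached 10. A count was present in all 36 libraries for 35 arms and in at most 18 libraries for 46 arms. A single library held a count for 62 to 81 of the 117.

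Levels were low. The median of the mean levels of the 117 arms was 0.0569 CPM. miRNAs with numbers up to miR-318, including let-7 and bantam, had a median of 82.9 CPM over 154 arms, those from miR-927 to miR-1017 a median of 1.18 CPM over 124 arms, and those from miR-2279 to miR-3645 a median of 0.0338 CPM over 41 arms. A mean of at least 1 CPM was reached by 20 of the 117 arms and a mean of at least 10 CPM by 4. The highest mean, 45.5 CPM, ranked 114th among the miRBase-named features.

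Summed over all members, the share of the miRNA counts was 199.3 ± 18.9 per M in young and 200.9 ± 17.5 per M in old heads (SD, n = 18 each). The values ran from 130.1 to 213 per M in young libraries, with a median of 204, and from 151.5 to 222 per M in old libraries, with a median of 205. The groups overlapped, and the difference of the means was smaller than either SD. The lowest values, 130.1 and 151.5 per M, belonged to the miR-184-rich pair. With miR-184-3p and unnamed features left out of the total, the shares were 231 ± 14.2 in young and 229 ± 15.2 per M in old heads. By time point, the mean share lay between 174 ± 38.3 per M at young ZT0 and 210.1 ± 5.09 per M at old ZT8 (n = 3 each).

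The equal sums depended on the reference. Per M of the larger total behind the deposited piRNA RPM values, the shares were 90.3 ± 7.74 in young and 51.8 ± 4.58 in old heads. Of the summed share per M miRNA counts, the 4900s made up 172.6 ± 18.4 in young and 173.5 ± 16.5 in old heads. The 9300s made up 26.6 ± 1.90 and 27.3 ± 3.26 per M.

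**Figure D1:**
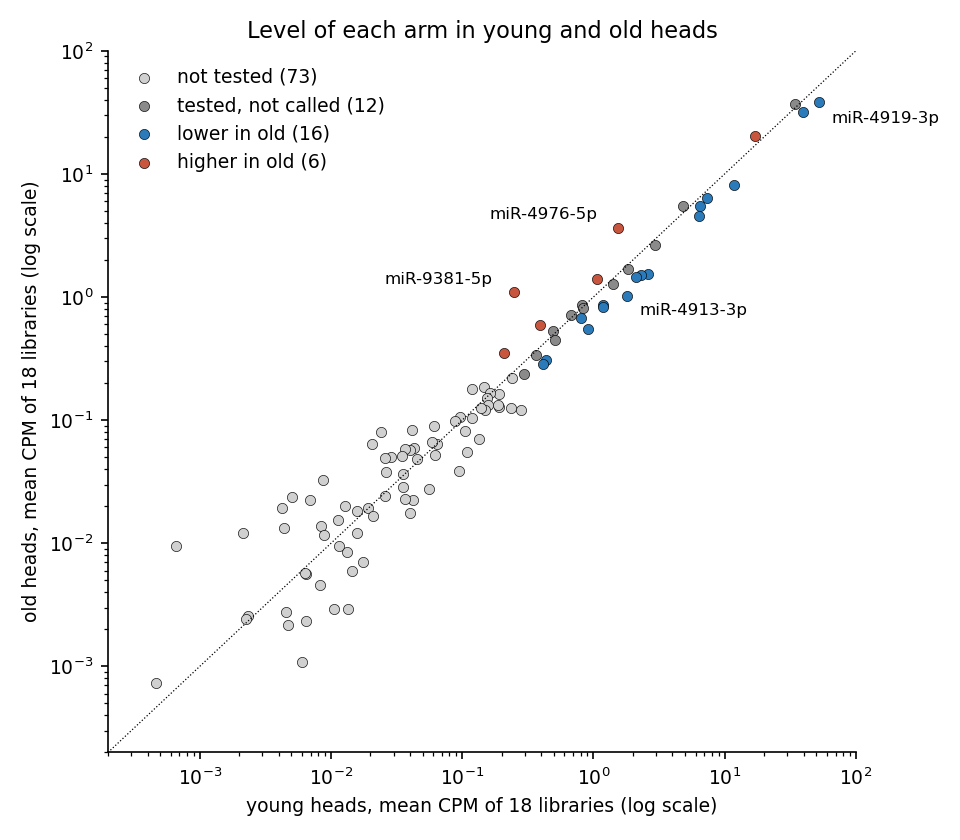
Mean level of the 107 arms with counts in both ages, young heads on the x axis and old heads on the y axis (CPM, log scales, n = 18 libraries each, dotted line: equal levels). Colours mark the 6 arms called higher and 16 called lower in old heads, 12 tested without a call and 73 not tested. Of the tested arms, miR-9381-5p and miR-4976-5p lie farthest above the line, and untested arms of low level scatter more widely around it.

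The hairpins lie in many kinds of places in the BDGP6 genome. An intron holds 35 of the 78 hairpins, a coding exon 13, a 5′ untranslated region 7, a 3′ untranslated region 4 and an exon of a noncoding gene 3, while 8 lie opposite a gene on the other strand and 8 outside genes. Reads from such a hairpin and short fragments of the host transcript cannot be told apart in count tables where the hairpin lies in an exon. Of the 8 most abundant arms, 4 come from exonic and 3 from intronic hairpins. Hairpins outside genes held 18.1% of the summed counts, those in coding exons 20.5%, in noncoding exons 19.5% and in introns 35.7%.

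In 12 hairpins both ends coincide with the ends of an annotated intron, within 2 nt, which is the geometry of a mirtron. They are mir-4908 to mir-4919 without a gap, with mir-4917 counted among the coding exons above because its intron lies within a coding exon of another transcript. Together the 12 held 24.4% of the summed counts, nearly all from mir-4919. Their median was 15 counts per hairpin over all libraries, against 140.0 counts for the other hairpins. The next most frequent were mir-4913 with 1216 and mir-4916 with 1135 counts, and mir-4911, mir-4917 and mir-4918 had none.

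Several of these miRNAs sit beside other hairpins. The hairpins mir-9369 and mir-4966, the latter present in 2 copies, lie on chromosome X within 10000 bp of the mir-972 to mir-979 cluster, whose miRNAs are known from testis. In these female heads miR-9369-5p averaged 0.164 ± 0.136 CPM over the young libraries and 0.165 ± 0.0874 CPM over the old. Among 8 arms of the cluster used as testis markers, miR-976-3p had the highest median, 1.26 CPM in young and 1.04 CPM in old heads. The mir-4969 hairpin lies within 10000 bp of mir-999, in an intron of CASK.

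The age comparison asks which miRNAs differ between heads of 5 and of 55 days. In the main fit 6 of the 8 most abundant members were called lower in old heads, against 32.8% of all features tested. With library totals alone the calls of miR-4951-5p, miR-4986-3p and miR-9378-5p were lost, and those of miR-4919-3p, miR-9383-3p and miR-4969-5p were kept. Called higher were, among others, miR-4976-5p and both arms of mir-9381, of which miR-9381-3p lost its call per the total behind the piRNA RPM. After the filter on low counts, 34 of the 117 arms, from 30 hairpins, were tested in edgeR's quasi-likelihood fit. Of these 34 arms 6 were called higher and 16 lower in old heads at an adjusted p under 0.05, while 12 were not called. Over all 363 features tested, 28.7% were called higher and 32.8% lower (61.4% in either direction), against 17.6% higher and 47.1% lower (64.7% in either direction) of the members. The share called in either direction was therefore near the background.

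The split between higher and lower depended on the scaling. With library totals in place of TMM factors, 8 members were called higher and 9 lower, with the median of all features shifted to 0.19 on the log2 scale. Per the total behind the piRNA RPM, 2 were called higher and 29 lower, with that median at -0.62. A direction given below thus says how an arm moved against the bulk of the miRNAs. Within an age, deviations of libraries with the same replicate number correlated above 0.1 in 44 of 90 pairs, against 32 of 180 pairs with different numbers. With counts summed over the libraries of one number in an age, which leaves 3 samples per age, 3 members were called higher and 10 lower. The calls lost there were those of miR-4952-5p, miR-4960-3p, miR-4961-5p, miR-4986-3p, miR-9374-5p, miR-9378-5p, miR-9379-3p, miR-9381-3p and miR-9382-5p. Without the 3 ovary-rich libraries 6 were called higher and 15 lower, and without all 5 libraries that stood apart 5 and 15.

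The median log2 difference of the tested members was -0.17, and that of all tested features -0.0079. In the 4900s 3 arms were called higher, 11 lower and 11 not called, and in the 9300s 3 higher, 5 lower and 1 not called. Among miRNAs up to miR-318 the fit called 44 higher and 38 lower of 139, and among those from miR-927 to miR-1017 it called 17 higher and 37 lower of 92. From miR-2279 to miR-3645 it called 3 higher and 3 lower of 14, and among the remaining miRBase-named features 1 higher and 15 lower of 17. In whole heads, fewer cells of a type and less RNA per cell cannot be told apart. Differences were mostly small, with log2 values from -0.82 to 2.03 and only 2 called changes over 2-fold. In no tested member were the 18 young and 18 old libraries fully separate, whereas 5.23% of all features had all old libraries higher and 4.41% all old libraries lower. At all 6 time points 14 of the 34 tested members (41.2%), each of them called, differed in 1 direction, against 56.5% of all tested features.

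**Figure D2:**
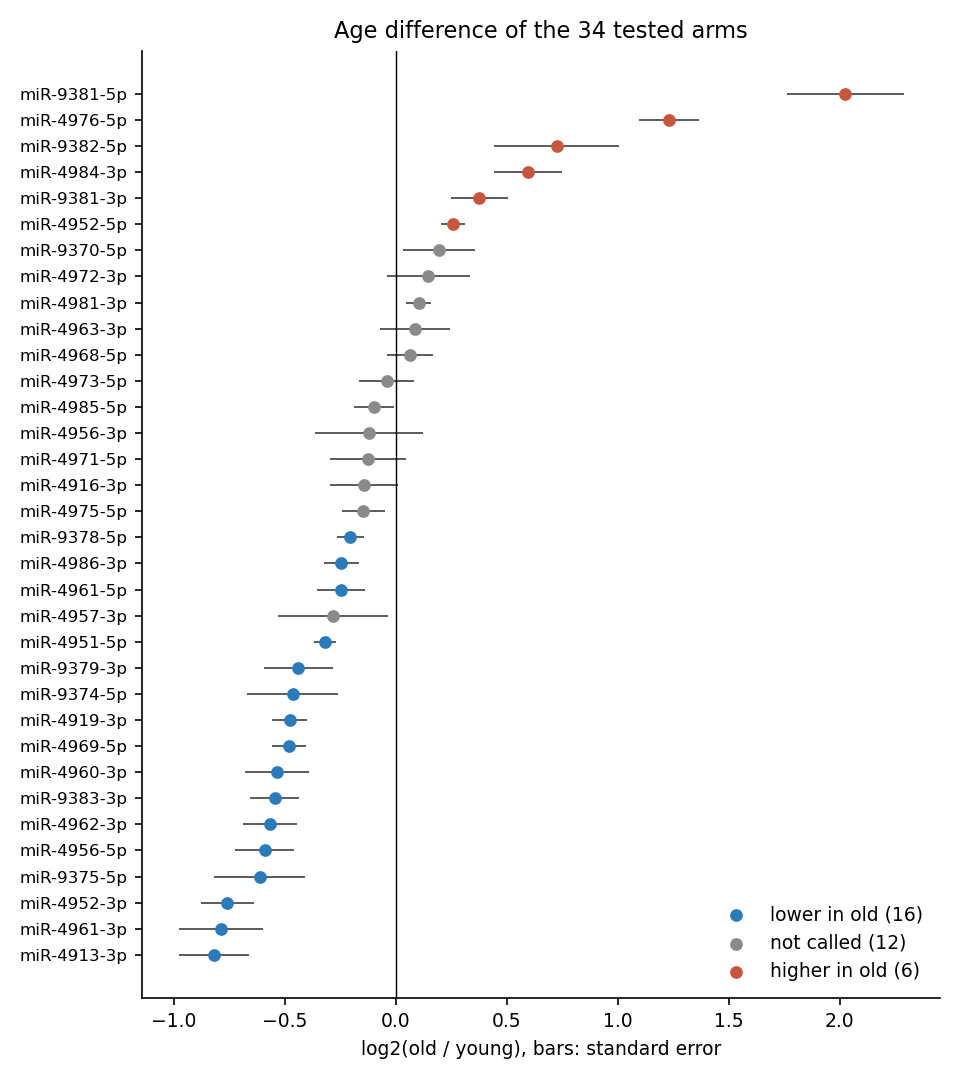
Difference between old and young heads for the 34 tested arms (log2 of old over young, edgeR, bars: standard error), ordered by size. The 16 arms called lower reach down to -0.82, the 6 called higher reach up to 2.03, and the 12 arms without a call lie between -0.28 and 0.20.

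Among intronic hairpins, the leading arm miR-4919-3p comes from a mirtron of the cytochrome P450 gene Cyp4aa1 (chromosome 2R, 15945887 to 15945946, plus strand). Its level was 42.7 to 62.0 CPM in young libraries, with a median of 52.9 CPM, and 25.0 to 60.3 CPM in old libraries, with a median of 38.2 CPM. The ages overlapped, although 14 of 18 old libraries lay below the lowest young one. The mean fell from 52.7 ± 5.77 to 38.3 ± 8.30 CPM (log2 -0.48, SE 0.080, adjusted p = 4.19e-06 in edgeR), lower at 6 of 6 time points. The 5p arm of the same hairpin had 39 counts in all libraries together, 0.102% of the hairpin's counts.

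A second mirtron arm, miR-4913-3p, had the deepest fall among the tested arms. It comes from an intron of Culd (chromosome 3L, 8354184 to 8354241, minus strand), a gene known for the turnover of rhodopsin in photoreceptors. Young libraries held 0.176 to 2.42 CPM, with a median of 1.93 CPM, and old libraries 0.564 to 1.49 CPM, with a median of 0.970 CPM. The lowest young value stood alone, and most other young libraries lay above the old ones. The mean went from 1.80 ± 0.530 to 1.02 ± 0.274 CPM (log2 -0.82, SE 0.16, adjusted p = 3.35e-05). The lowest young value was that of the miR-184-rich young ZT0 replicate 1. The third tested mirtron arm, miR-4916-3p from the olfactory co-receptor gene Ir8a, was not called (1.40 ± 0.461 and 1.27 ± 0.374 CPM).

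Of 10 tested intronic arms outside mirtrons, 4 were called lower, 2 higher and 4 not called. The arm miR-4969-5p comes from an intron of CASK, which encodes a synaptic scaffold protein (chromosome 3R, 21798514 to 21798671, minus strand). It ranged from 4.68 to 8.37 CPM in young libraries (median 6.43) and from 3.57 to 5.76 CPM in old libraries (median 4.59). The separation was partial, with 9 of 18 old libraries below every young one. The log2 difference was -0.48 (SE 0.077, adjusted p = 2.09e-06).

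In an intron of CG17124 lies mir-9378 (chromosome 2L, 10751877 to 10751938, minus strand). Its arm miR-9378-5p ranged from 5.92 to 9.97 CPM in young libraries (median 7.40) and from 4.94 to 7.63 CPM in old libraries (median 6.57). The ages overlapped widely, with a log2 difference of -0.20 (SE 0.061, adjusted p = 0.00441) that was at -0.0019 and not called with library totals alone. The same loss of the call was found without a filter, in limma on either log2 scale and with counts summed per age and replicate number.

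The other calls of a lower level were those of miR-4960-3p, from Appl, the fly homologue of the amyloid precursor protein gene (2.11 ± 0.514 to 1.45 ± 0.486 CPM, log2 -0.54), whose call was lost with summed counts, and of miR-4962-3p, from the kinase gene Tlk (1.19 ± 0.222 to 0.829 ± 0.293 CPM, log2 -0.57). For miR-4962-3p, 12 of 18 old libraries lay below every young one. The calls of a higher level were both of arms below 1 CPM. One was miR-4984-3p, from PAPLA1, rising from 0.391 ± 0.117 to 0.591 ± 0.167 CPM (log2 0.59, adjusted p = 0.00107), though it stood at -0.018 per the total behind the piRNA RPM. The rise of miR-9382-5p, from the transporter gene MRP, from 0.209 ± 0.133 to 0.349 ± 0.227 CPM (log2 0.73, adjusted p = 0.0254) lost its call without old ZT0 replicate 2 (log2 0.60) or without old ZT8 replicate 2 (log2 0.58). In all, 2 of 13 tested arms from intronic hairpins were called higher and 6 lower.

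Among exonic hairpins, mir-4951 lies in the heat shock noncoding RNA gene lncRNA:Hsromega (chromosome 3R, 21316716 to 21316865, plus strand), whose transcripts organise nuclear speckles. The arm miR-4951-5p ranged from 33.4 to 44.2 CPM in young libraries (median 39.4) and from 22.9 to 39.0 CPM in old libraries (median 31.9). Old libraries were the lower ones, 12 of 18 below every young library. The mean fell from 39.8 ± 3.07 to 32.0 ± 3.85 CPM (log2 -0.32, SE 0.051, adjusted p = 2.15e-06). The call was lost with library totals alone, where the difference was -0.12, and in limma on either log2 scale. The 3p arm had 150 counts in all and was not tested.

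The hairpin mir-4952 overlaps a coding exon of the neurexin gene Nrx-1, which acts in synapse formation (chromosome 3R, 22480813 to 22480938, plus strand), and its arms moved apart. Its 5p arm stood at 14.96 to 19.8 CPM in young libraries (median 16.9) and at 14.1 to 24.4 CPM in old libraries (median 20.8). Of the old libraries 12 of 18 lay above every young one. The 5p mean rose from 17.1 ± 1.47 to 20.4 ± 2.63 CPM (log2 0.26, SE 0.055, adjusted p = 1.26e-04), but it was at -0.36 per the total behind the piRNA RPM and at 0.22 without a call with summed counts. In 18 of 36 libraries the 5p count had a fraction, for which the files give no reason.

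The 3p arm of mir-4952 had 1.06 to 3.39 CPM in young libraries (median 2.64) and 0.700 to 2.08 CPM in old libraries (median 1.62). The old values were lower at 6 of 6 time points, with 2 of 18 below every young library. Its log2 difference was -0.76 (SE 0.12, adjusted p = 1.80e-06). Both values belong to the same hairpin, and the ratio between them is described below.

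Another coding exon hairpin, mir-9383 in CG12241 (chromosome 3R, 15221795 to 15221855, plus strand), gave miR-9383-3p. Young libraries ranged from 7.47 to 14.6 CPM (median 12.3) and old libraries from 5.46 to 16.7 CPM (median 7.22). Old ZT0 replicate 3, rich in miR-184-3p, was the highest of all, while 11 old libraries lay below every young one. The log2 difference was -0.55 (SE 0.11, adjusted p = 8.41e-05). For miR-4986-3p, from a coding exon of CG6749, the levels were 6.51 ± 1.24 and 5.48 ± 0.664 CPM (log2 -0.25, adjusted p = 0.00735), a difference that was -0.045 and not called with library totals alone.

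The hairpin mir-4956 overlaps a coding exon of Sxl, the master switch gene of female development (chromosome X, 7085737 to 7085853, minus strand). Its arm miR-4956-5p went from 2.29 ± 0.674 to 1.52 ± 0.369 CPM (log2 -0.59, SE 0.13, adjusted p = 2.18e-04). Its 3p arm was not called (log2 -0.12, SE 0.24, adjusted p = 0.680). On the same chromosome, in the 3′ untranslated region of ssx, a paralogue of Sxl, lies mir-4961, whose arm miR-4961-3p went from 0.916 ± 0.216 to 0.550 ± 0.324 CPM (log2 -0.79, adjusted p = 5.64e-04). The 5p arm of mir-4961 was near the threshold (log2 -0.25, adjusted p = 0.0481), and leaving out 1 library ended its call in 25 of 36 fits.

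The largest rise among the tested arms was in the noncoding gene lncRNA:mimi, where mir-9381 lies (chromosome 3R, 23983496 to 23983569, plus strand). Its arm miR-9381-5p had 0.0454 to 0.664 CPM in young libraries (median 0.239) and 0.373 to 2.96 CPM in old libraries (median 1.08). Old libraries were the higher ones, 12 of 18 above every young library and all 6 time points higher. The mean rose from 0.247 ± 0.154 to 1.09 ± 0.605 CPM (log2 2.03, SE 0.26, adjusted p = 4.51e-08), a 4.07-fold difference in the fit. This arm passed the filter on low counts only through its old libraries, where it was high. Its p-value and its rank by size are therefore not independent of that choice. The highest old value was that of old ZT0 replicate 3. Its 3p arm went from 1.06 ± 0.319 to 1.39 ± 0.339 CPM (log2 0.38, SE 0.13, adjusted p = 0.0115), and was at -0.24 per the total behind the piRNA RPM. The call of the 3p arm was also lost without the 5 libraries that stood apart and with counts summed per age and replicate number.

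Of hairpins opposite a gene, mir-4976 lies on the other strand of CG15236 (chromosome 2R, 6835533 to 6835635, minus strand), and miR-4976-5p rose the most among arms above 1 CPM. Young libraries held 0.529 to 2.43 CPM (median 1.54) and old libraries 1.61 to 5.76 CPM (median 3.83). All but 2 old libraries lay above every young one, 16 of 18. The mean rose from 1.55 ± 0.431 to 3.66 ± 0.977 CPM (log2 1.23, SE 0.14, adjusted p = 2.02e-09), higher at 6 of 6 time points. The lowest value of each age was that of its miR-184-rich library. Opposite CG30485, mir-9379 gave miR-9379-3p, which fell from 1.19 ± 0.348 to 0.868 ± 0.284 CPM (log2 -0.44, adjusted p = 0.0146), a call that was lost in limma on either log2 scale and with library totals alone.

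Outside genes, miR-4981-3p (chromosome 2R, 8015249 to 8015343, plus strand) was among the 3 most abundant arms and was not called. Its level was 27.1 to 44.1 CPM in young libraries (median 34.98) and 32.5 to 43.6 CPM in old libraries (median 36.1). The ages overlapped throughout. The log2 difference was 0.10 (SE 0.056, adjusted p = 0.105), and a call appeared under other settings. It was at 0.30 and called with library totals alone, as in limma on either log2 scale, and at -0.51 and called per the total behind the piRNA RPM. It was also called without a filter (0.16), at a mean of at least 10 CPM (0.20), and without young ZT0 replicate 1, young ZT16 replicate 1, young ZT16 replicate 2 or young ZT20 replicate 2 (0.13 to 0.14). The remaining called arms, all below 1 CPM, were miR-9374-5p from the nuclear receptor gene Hr39 (log2 -0.46, adjusted p = 0.0494, lost in 29 of 36 fits with 1 library left out) and miR-9375-5p from CG9727 (log2 -0.61, adjusted p = 0.00985), whose call was lost with library totals alone (-0.42) and in limma on log2(RPM + 1).

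**Figure D3:**
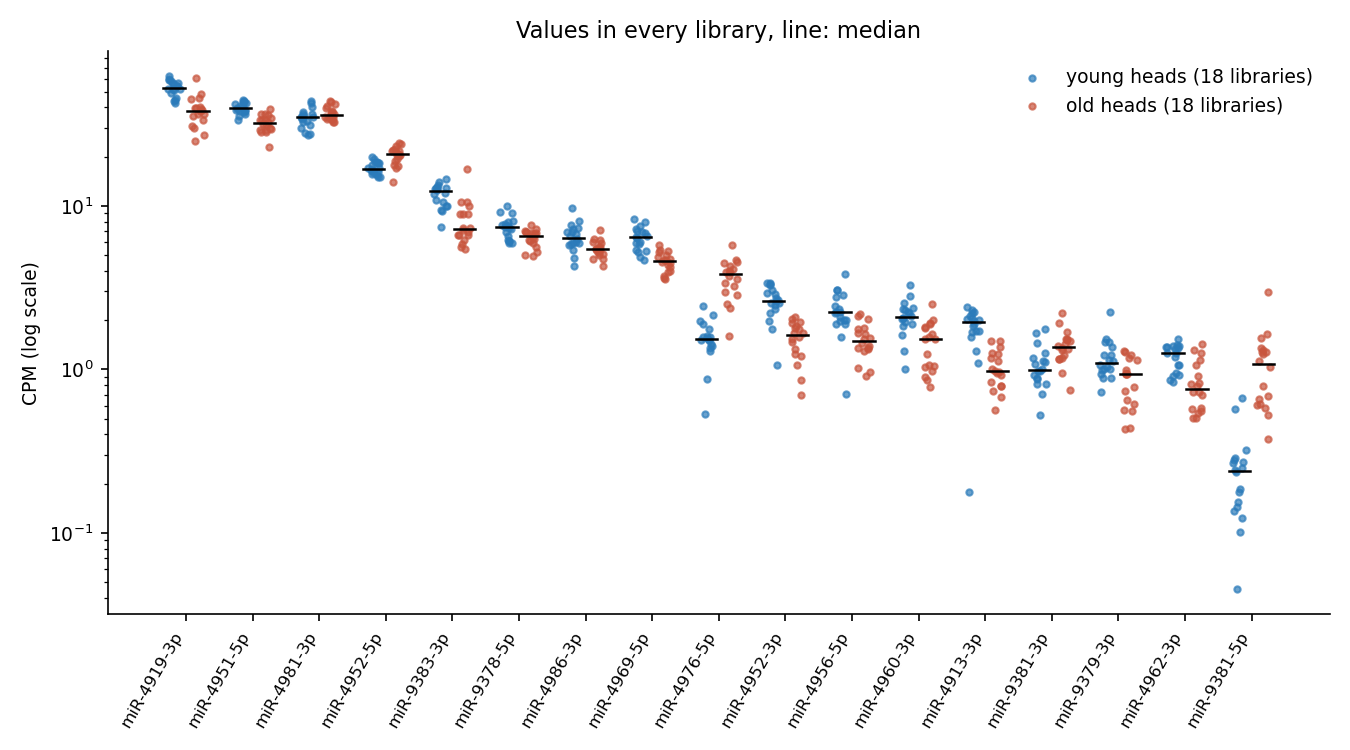
CPM in every library (log scale) for the 16 arms named by rule and miR-9381-5p, young on the left and old on the right of each pair, with a line at the median of 18 libraries. The pairs overlap for every arm, with most old libraries above the young ones for miR-4976-5p and miR-9381-5p.

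The arms of a hairpin were compared with each other, because their ratio within a library does not depend on library scaling. Of 50 hairpins with both arms listed and a count, the 5p arm had more counts in 26 and the 3p arm in 24. One arm held over 90% of the counts in 26 of the 50, and in 20 of the 34 hairpins with at least 100 counts. Both arms were tested in 4 hairpins, chosen for that reason after the values were seen. Their log2 ratio of the 5p to the 3p count, with 0.5 added to each, was compared between 18 young and 18 old libraries by 2-sided permutation tests, adjusted over the 4 hairpins.

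For mir-4952 the log2 ratio was 2.37 to 3.84 in young libraries (median 2.64) and 3.11 to 4.57 in old libraries (median 3.74). Old libraries were the higher ones, 7 of 18 above every young library. The means were 2.74 ± 0.345 and 3.75 ± 0.321, a difference of 1.01 (permutation p = 2e-05 and adjusted p = 4e-05, where 2e-05 is the lowest value open to 100000 resamples).

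For mir-9381 the log2 ratio was -3.91 to -0.55 in young libraries (median -2.16) and -1.98 to 0.93 in old libraries (median -0.45). The 3p arm was thus the more frequent one in every young library, and the arms were closer to equal in old libraries. The means were -2.15 ± 0.837 and -0.48 ± 0.694, a difference of 1.67 (permutation p = 2e-05, adjusted p = 4e-05). The hairpin mir-9381 was among those compared only because its 5p arm passed the filter through old libraries, so this p-value is not independent of that choice. For mir-4961 the difference was 0.70 (permutation p = 0.0036, adjusted p = 0.0048), and for mir-4956 it was -0.43 (permutation p = 0.18, adjusted p = 0.18). The 5p count of mir-4961 had a fraction in 30 of 36 libraries, and its 3p count in 1. With the libraries of each age and replicate number averaged, which leaves 3 values per age, an exact permutation test gave p = 0.1 for mir-4952, mir-9381 and mir-4961, the lowest that 3 against 3 can reach, and p = 0.2 for mir-4956.

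**Figure D4:**
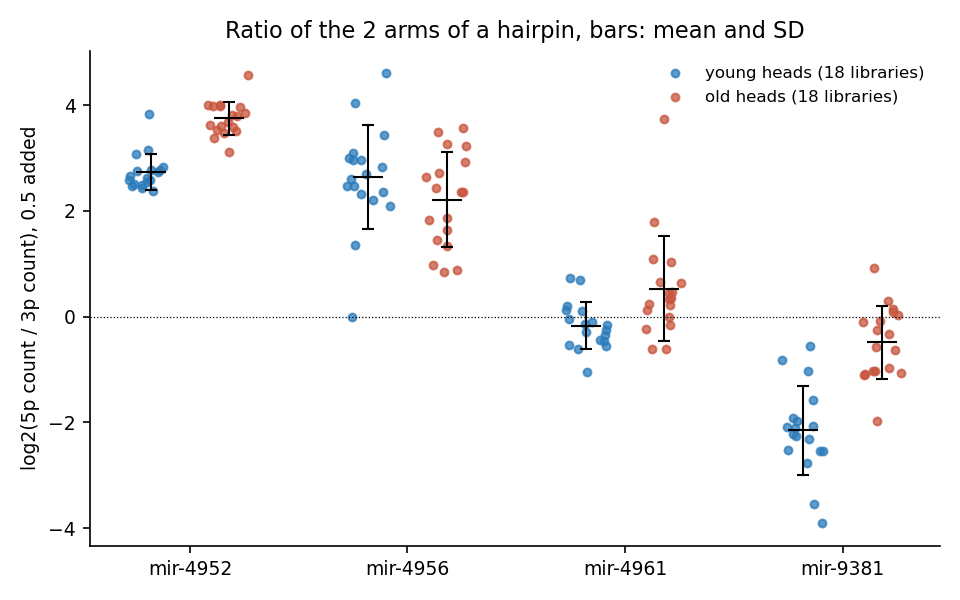
log2 ratio of the 5p to the 3p count (0.5 added) in each of 18 young and 18 old libraries for the 4 hairpins with both arms tested, with mean and SD. Old libraries lie above young ones by 1.01 for mir-4952 and by 1.67 for mir-9381 on average, and 1 old library of mir-4961 stands at 3.74.

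Sampling around the day asks which miRNAs follow a 24 h rhythm. In young heads 1 of the 34 tested members (2.94%), miR-9378-5p, was called rhythmic, against 4.68% of all 363 features. At an unadjusted p under 0.05 there were 3 members, against 9.92% of all features. It stood at 9.08, 9.14 and 9.97 CPM in the young ZT0 libraries and at 5.96, 6.12 and 6.17 CPM in those of ZT12. On this TMM-scaled measure the ZT0 libraries were above all other young libraries and the ZT12 libraries near the bottom. The 9.97 CPM was that of the miR-184-rich replicate 1, whose TMM factor of 0.573 raised its scaled values. The means from ZT0 to ZT20 were 9.40 ± 0.498, 7.08 ± 0.821, 6.91 ± 0.308, 6.09 ± 0.108, 7.13 ± 1.07 and 7.74 ± 0.384 CPM (n = 3 each), with a fitted peak at ZT23.2 and a fitted log2 distance of 0.48 between peak and trough, its size (adjusted p = 0.0198). The call was lost without young ZT12 replicate 1, which left 0 rhythmic members, without the 5 libraries that stood apart, in limma on either log2 scale and with library totals alone.

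In old heads miR-9378-5p had means between 5.76 ± 0.899 CPM at ZT8 and 6.94 ± 0.660 CPM at ZT20, with a fitted size of 0.21 (adjusted p = 0.830). The difference of its rhythm between the ages was not called (adjusted p = 0.578). The next smallest p-values in young heads were those of miR-4956-5p (size 0.70, peak at ZT11.1, adjusted p = 0.240) and miR-4981-3p (size 0.31, peak at ZT1.34, adjusted p = 0.308), neither called. Without young ZT4 replicate 3 a second member, miR-4981-3p, was called.

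No feature was called rhythmic in old heads by edgeR (0 of 363, 42 at an unadjusted p under 0.05, or 11.6%, of which 4 were members), by DESeq2 or by limma. The smallest p among the members belonged to miR-4919-3p, whose old means were 47.4 ± 13.4 CPM at ZT0, 40.4 ± 5.20 at ZT4, 39.8 ± 4.48 at ZT8, 33.9 ± 6.11 at ZT12, 28.5 ± 3.14 at ZT16 and 39.6 ± 0.516 at ZT20. The 3 libraries of ZT16 held 25.0, 29.8 and 30.9 CPM, and those of ZT0 33.5, 48.6 and 60.3 CPM. The values of ZT16 and ZT0 did not overlap, but the fitted rhythm (size 0.57, peak at ZT2.06) had an adjusted p of 0.107 in edgeR. Of the ZT0 values, 60.3 CPM was that of the miR-184-rich replicate 3 and 48.6 CPM that of the ovary-rich replicate 1. In young heads its means lay between 49.2 ± 4.36 and 55.0 ± 1.51 CPM, with a fitted size of 0.096. For miR-9383-3p the old means ran from 11.5 ± 4.53 CPM at ZT0 to 6.404 ± 0.685 CPM at ZT20 (size 0.56, adjusted p = 0.417). At old ZT0 the miR-184-rich replicate 3 held 16.7 CPM, and replicates 1 and 2 held 8.91 and 8.87 CPM.

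A rhythm that differs between the ages was called for 0 of 363 features by edgeR (34 at an unadjusted p under 0.05, or 9.37%, of which 2 were members) and by limma, and for 4 features, none of them a member, by DESeq2. The smallest p among the members was that of miR-4956-5p (adjusted p = 0.299 in edgeR), followed by miR-4919-3p (adjusted p = 0.304). In young heads miR-4956-5p went from 1.62 ± 0.809 CPM at ZT0 to 2.98 ± 0.750 CPM at ZT8 and 1.90 ± 0.325 CPM at ZT20. At young ZT0 the miR-184-rich replicate 1 held 0.706 CPM, and replicates 2 and 3 held 2.24 and 1.91 CPM. In old heads miR-4956-5p went from 1.53 ± 0.233 CPM at ZT0 to 1.91 ± 0.327 CPM at ZT4 and 1.18 ± 0.427 CPM at ZT16.

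**Figure D5:**
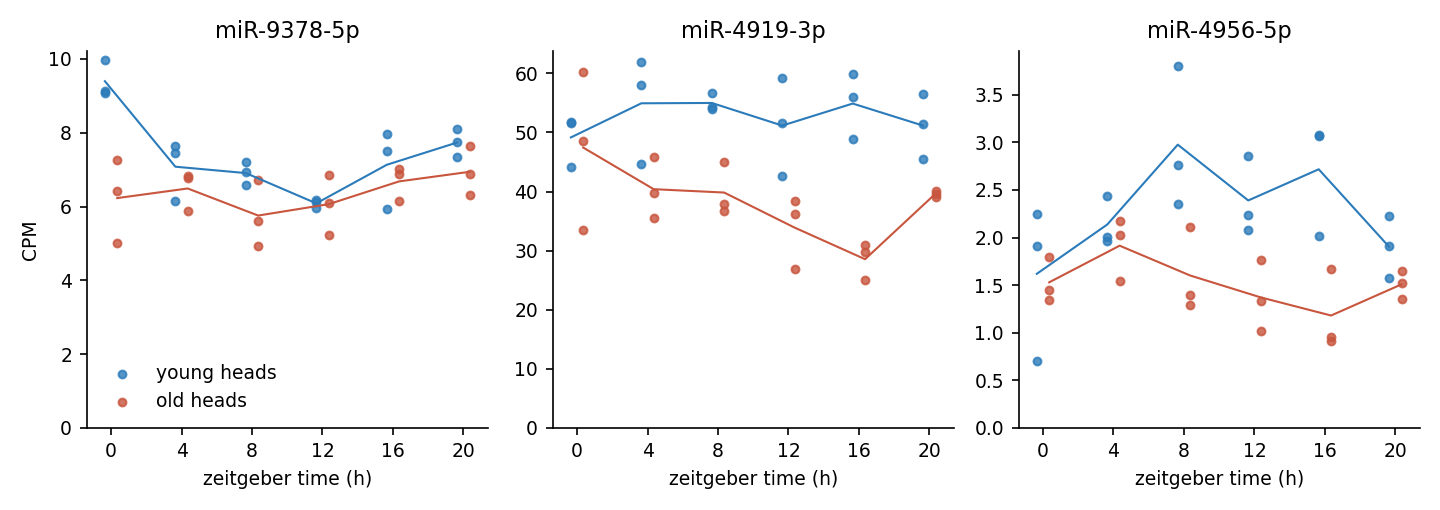
CPM of miR-9378-5p, miR-4919-3p and miR-4956-5p by zeitgeber time in young and old heads, with a point per library (3 per time point) and a line through the means. Young miR-9378-5p is highest at ZT0 (9.40) and lowest at ZT12 (6.09), and old miR-4919-3p is lowest at ZT16 (28.5).

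The 83 arms left out by the filter had totals from under 1 count to 192 counts over all libraries, and no library held more than 16 counts of any of them. The tested arm with the lowest total was miR-4957-3p with 218 counts, and the untested arm with the highest was miR-9372-3p with 192. Of the 83 arms, 37 had a count in over 18 libraries, 30 had a total under 10 counts, 7 had counts in young heads alone and 3 in old heads alone. The arm miR-4969-3p had 16 counts in 7 young libraries and 0 in old ones. Its young level was 4.29-fold a floor of 3 counts over the 18 old libraries. Its partner miR-4969-5p, with 4622.5 counts, was also lower in old heads. For miR-4973-3p, 6 counts in 2 young libraries against 0 gave 1.61-fold that floor. Both arms were picked for their count of 0 in old heads, and neither difference was tested. The floor covers counting error of the old count only, not that of the young count, so these folds are not lower bounds. Reads without molecular identifiers are also not independent molecules. Absence from a library is not shown at this depth, where 3 counts amount to 0.0985 to 0.185 per M.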

How the data were processed

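The authors deposited expected counts per mature miRNA arm, partly with fractions, and the same values as RPM, which equal the count per M of the miRNA table. The deposited piRNA tables hold expected counts and RPM as well; the total behind that RPM served only as an alternative library size. Per the submitters' processing notes, Bowtie was used with the BDGP6 and dm6 builds; its settings are not given in the sources used here. Expected counts were rounded and all 363 features kept by filterByExpr were fitted together with edgeR 4.0.16 in R 4.3.3 (TMM factors, quasi-likelihood test). Age was tested with time point as a factor, and rhythm with a cosine and a sine of 24 h period in each age. P-values were adjusted over all tested features by the Benjamini-Hochberg method, with a threshold of 0.05. The procedure was tested on simulated data, where 93.0% of 2-fold age changes, 70.0% of young rhythms with 1 log2 unit from trough to peak and 36.0% of such rhythms present only in young heads were recovered. Simulated libraries were drawn independently, without a relation between libraries of 1 replicate number. These rates cover all 363 features and not the tested members alone, whose median level was 1.28 CPM. Arms were named if they were among the 8 highest, if they were called with age at a mean of at least 1 CPM (at most 15), or if they had 1 of the 3 smallest p-values in a rhythm test, with the other arm of the hairpin. Arms named beyond this rule were chosen after their values were seen. The miRNAs, lists and naming rule were chosen with earlier results of these data known. Hairpins were placed by name with the BDGP6 gene annotation. No sequences are shown. Alternatives were RLE factors, library totals alone, DESeq2 1.42.0, limma 3.58.1 on log2(RPM + 1) and log2(RPM + 0.1), other filters, a replicate block, summed counts and the removal of libraries.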

Additional observations from a re-analysis of the deposited data

How the results depend on the processing

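Members called higher in old heads numbered 6, and 2 per the total behind the piRNA RPM, 10 without a filter (116 arms tested), 2 at a mean of at least 10 CPM (4 tested) and 3 with counts summed per age and replicate number. Members called lower numbered 16, and 9 with library totals alone, 29 per the total behind the piRNA RPM, 2 at 10 CPM, 10 with summed counts, and in limma 9 on log2(RPM + 1) and 10 on log2(RPM + 0.1). The single rhythmic member in young heads became 0 with library totals alone, per the total behind the piRNA RPM, at 10 CPM (where it was not tested), with limma on either log2 scale and without the 5 libraries that stood apart. Leaving out 1 library gave 5 to 8 higher, 14 to 16 lower, 0 to 2 rhythmic in young and 0 rhythmic in old heads or differing in rhythm. The counts of 0 members rhythmic in old heads and of 0 members differing in rhythm were 0 in each alternative run. The summed shares were 90.3 (young) and 51.8 (old) per M of the total behind the piRNA RPM, 231 and 229 per M named counts without miR-184-3p, and 198 to 203 and 199.6 to 204 without 1 library. Signs changed per the total behind the piRNA RPM for miR-4952-5p (-0.36), miR-4981-3p (-0.51), miR-4984-3p (-0.018) and miR-9381-3p (-0.24). The uncalled miR-4956-3p changed sign with library totals alone (0.082), with limma on log2(RPM + 1) (0.026) and log2(RPM + 0.1) (0.049) and without young ZT12 replicate 2, its range with 1 library left out being -0.22 to 0.0094. The cause was not tested, except that the 10 CPM filter tests fewer arms and summing leaves 3 samples per age. RLE factors and DESeq2 each gave 6 higher and 14 lower. The arm ratios of mir-4952, mir-9381 and mir-4961 kept their direction and stayed under 0.05 with 1 count added, without the libraries that stood apart and without any 1 library. Without young ZT0 replicate 1 the ratio of mir-4956 passed an unadjusted 0.05 (-0.58). The alternatives that leave out the libraries that stood apart, and those of the arm ratios, were chosen after seeing the data.

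Whether replicate numbers pair young with old samples was not settled. Deviations of same-numbered young and old libraries correlated above 0.1 in 7 of 18 pairs (-0.34 to 0.43, median 0.037). Young and old libraries of different numbers were not compared. A replicate block shared by both ages gave 6 higher, 16 lower and 1 rhythmic member, and changed no call of the 24 arms followed. Such a block cannot take up a relation between libraries that holds within 1 age only. Within an age, the median correlation was 0.098 between libraries of the same number and -0.047 between others, so the age tests over 18 libraries may count related libraries as separate. The filter left 83 of 117 arms out, and without it 116 were fitted.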
